A study of Mus musculus with 12 samples.

Results

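The phagocyte NADPH oxidase is the membrane enzyme that makes superoxide in neutrophils, monocytes and macrophages. Its mRNAs were examined here through 5 subunit genes of the 24454 genes in the deposited table. These are Cybb, Cyba, Ncf1, Ncf4 and Rac2, chosen by name as core parts of the enzyme, and all 5 passed the filter on low values (a mean of at least 10 normalized counts over the 12 libraries, passed by 11476 genes).

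Fetal liver cells of wildtype (WT) or STAT3β-deficient (Δβ) mice, the latter lacking the shorter splice form of the transcription factor STAT3, were transduced with a retroviral vector for the MLL-AF9 fusion oncogene and the fluorescent protein Venus. Both genotypes carried this vector. The transformed cells were given by tail vein to young adult male NSG mice (NOD.Cg-Prkdc scid Il2rg tm1Wjl/SzJ), which lack T, B and NK cells but keep their own myeloid cells. When the animals were diseased, Venus+ blasts were sorted from spleen (SP) and bone marrow (BM), and poly-A RNA was sequenced from 3 replicates of each genotype and organ. The 4 groups are called WT SP, Δβ SP, WT BM and Δβ BM. MLL-AF9 expression from a retrovirus in fetal liver cells differs from the human translocation, and although the study states 3 samples per group and organ, whether SP and BM of 1 number came from 1 animal, and how many transformed lines were used, is not given in the sources used here. P-values therefore measure the spread between these samples, which may be technical.

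Resting phagocytes keep the oxidase in separate pieces. The catalytic subunit gp91phox (from Cybb) and its partner p22phox (Cyba) form flavocytochrome b558 in the membrane, while p47phox (Ncf1) and p40phox (Ncf4) wait in the cytosol as parts of a complex. On activation p47phox is phosphorylated and carries the cytosolic complex to p22phox, the small GTPase Rac2 joins the assembly, and electrons pass from NADPH to oxygen. Loss of Cybb, Cyba, Ncf1 or Ncf4 function causes chronic granulomatous disease. Transcription of these genes rises as myeloid cells mature, with PU.1 (Spi1) and interferon regulatory factors among the known activators of Cybb.

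Because PU.1, interferon regulatory factors and STAT proteins are known regulators of such genes, the 100 bases before the RefSeq start (GRCm38.p6) are shown for the members with an entry in the promoter table at hand, which were Cybb, Cyba and Ncf1. The Cybb stretch is chrX:9469325-9469424, the Cyba stretch chr8:122432941-122433040 and the Ncf1 stretch chr5:134229626-134229725, all read from the minus strand, 5′ to 3′. Capitals mark matches to CCAAT, to TTCNNNGAA (the STAT palindrome) and to GAAA followed by any 2 bases and a further GAAA (the core of the interferon-stimulated element, called the GAAA repeat here).
Cybb: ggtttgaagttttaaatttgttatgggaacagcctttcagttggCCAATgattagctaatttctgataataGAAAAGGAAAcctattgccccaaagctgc
Cyba: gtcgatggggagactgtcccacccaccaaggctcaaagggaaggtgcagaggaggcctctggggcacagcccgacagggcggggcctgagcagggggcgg
Ncf1: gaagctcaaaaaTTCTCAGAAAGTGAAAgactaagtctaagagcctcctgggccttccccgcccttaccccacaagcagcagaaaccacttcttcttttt
In the Cybb stretch, CCAAT lay 56 to 52 bases before the start and the GAAA repeat lay 29 to 20 bases before it. The letters AGGAA, the core recognised by PU.1, fell inside the latter match at 25 to 21 bases. Cybb held the GAAA repeat on the other strand too, at 168 to 159 and at 124 to 115 bases before the start. In Ncf1, TTCNNNGAA lay at 88 to 80 bases and overlapped the GAAA repeat at 82 to 73 bases. The Cyba stretch held no match to these letters, and GAGGAA, a longer PU.1 core, matched none of the 3 windows. Over 32851 windows of 250 bases searched on both strands, 2.977% held the GAAA repeat, 7.02% held TTCNNNGAA, 23.25% held GAGGAA, 33.85% held CCAAT and 60.28% held AGGAA. The motifs were chosen with these sequences in view, and a match is a description of letters, not of a bound site.

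Whole reads could be recovered from the deposited values, and 9001051 to 13859727 reads per library fell on genes. The lowest count behind any member was 4076 reads, for Ncf4, where counting alone gives an error of 1.57%, so the spread described here is almost entirely between libraries. Pearson's r across genes was 0.964 for WT SP replicates 1 and 2, 0.9425 for 2 and 3, and 0.897 for 1 and 3. Within the other groups it was 0.929 to 0.968. Both lower pairs of WT SP held replicate 3, although the pair of 2 and 3 lay within the range of the other groups. The SP fold changes of the members and the counts of each gene list are given with and without WT SP replicate 3. Of the 12 libraries, it was the 1 whose removal raised the number of genes called in SP (1884, against 12 with all libraries). Calls made without it are therefore given as a description. Without WT SP replicate 1 limma called 9 genes in SP, and without WT SP replicate 2 it called 4. The counts of each gene list in those 2 fits are not given here. All 9 markers of MLL-AF9 blasts passed the filter on low values, although Mecom reached 82.7 normalized counts in WT SP replicate 2 and 92.3 in replicate 3 and was under 10 elsewhere. Globin transcripts Hba-a1, Hbb-bs and Hbb-bt were at 0 in every library. Of 10 macrophage markers 2 passed the filter, and summed T cell markers ranged from 0 to 328 normalized counts.

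The members are among the most abundant mRNAs of these blasts. Ranked by mean normalized count among the 11476 tested genes, Cybb was number 37, Ncf1 number 44, Rac2 number 59, Cyba number 139 and Ncf4 number 204. Across the 12 libraries the highest value was 4.05 times the lowest for Cybb, 1.90 times for Ncf1, 1.82 times for Ncf4, 1.60 times for Rac2 and 1.59 times for Cyba. Within groups, the standard deviation on the log2 scale was 0.62 for Cybb against 0.17 to 0.27 for the others, with a median of 0.267 over all tested genes. Cybb, the catalytic subunit, was thus the member whose mRNA differed most between replicates of 1 group.

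Cybb (RefSeq NM_007807, Entrez gene 13058) spans 9435252 to 9487771 of chromosome X on the minus strand (GENCODE M21 on GRCm38, as for all positions of genes given here). The RefSeq start used for the bases printed above lies inside this span, and the motif distances count from that RefSeq start. In normalized counts, given here and for every gene in the order of replicates 1, 2 and 3, WT SP had 29693, 24726 and 9251 and Δβ SP had 12501, 10333 and 7329. In BM the values were 13254, 14968 and 21246 in WT and 21245, 15608 and 8494 in Δβ. WT SP replicates 1 and 2 were the highest of all 12 libraries, while WT SP replicate 3 fell among the Δβ SP values, so the groups overlapped in both organs. The SP means were 21223 ± 10662 (SD, n = 3) for WT and 10054 ± 2597 (SD, n = 3) for Δβ. On the log2 scale the Δβ minus WT difference in SP (the log2 fold change) was -0.95 (SE 0.45, 95% interval -1.93 to 0.04) and did not pass the threshold (limma, Benjamini-Hochberg adjusted p = 0.352). Without WT SP replicate 3 it was -1.46 (SE 0.37) and passed (limma adjusted p = 0.0272), in a comparison where 16.4% of all tested genes passed and 11.7% passed as lower. Leaving out WT SP replicate 1 gave -0.62 (limma adjusted p = 0.756) and leaving out replicate 2 gave -0.76 (limma adjusted p = 0.664), and neither passed. In BM the log2 fold change was -0.19 (SE 0.45, limma adjusted p = 0.99997).

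Cyba (NM_007806, Entrez gene 13057) encodes p22phox, without which gp91phox is not stable, and spans 122424776 to 122432930 of chromosome 8 on the minus strand. Its normalized counts were 10058, 10175 and 7629 in WT SP, 7448, 7338 and 7485 in Δβ SP, 7182, 6617 and 8656 in WT BM, and 7786, 7261 and 6388 in Δβ BM. The 3 Δβ SP values were nearly identical and all lay below the lowest WT SP value, by a narrow margin for WT SP replicate 3, whereas the BM groups overlapped. The log2 fold change was -0.31 (SE 0.15) in SP and did not pass (limma adjusted p = 0.359), nor did it without WT SP replicate 3, at -0.45 (SE 0.14, limma adjusted p = 0.0524). In BM it was -0.06 (SE 0.15).

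Of the cytosolic subunits, Ncf1 encodes p47phox, the organizer that docks on p22phox. Its row carries RefSeq NR_104383 (Entrez gene 17969), an accession of the kind given to non-coding transcripts, and the gene spans 134220053 to 134229625 of chromosome 5 on the minus strand. Ncf1 had 14190, 19362 and 13612 normalized counts in WT SP and 11171, 10641 and 12477 in Δβ SP. In BM it had 13025, 13944 and 20223 in WT and 13673, 11792 and 15507 in Δβ. Every Δβ SP value lay below every WT SP value, and in BM the groups overlapped. The log2 fold change in SP was -0.44 (SE 0.20, limma adjusted p = 0.337), without WT SP replicate 3 it was -0.54 (SE 0.22, limma adjusted p = 0.113), and in BM -0.18 (SE 0.20). Of its exon bases 408 (11.1%) overlap Gtf2ird2 on the opposite strand. That gene had a mean of 306 normalized counts over the 12 libraries, against 14135 for Ncf1, and whether the counting used strand is not given in the sources used here.

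Ncf4 encodes p40phox, which binds phosphatidylinositol 3-phosphate on phagosomes (NM_008677, Entrez gene 17972, plus strand of chromosome 15 from 78244801 to 78262580). Its normalized counts were 6780, 8495 and 5626 in WT SP, 5921, 4659 and 6016 in Δβ SP, 6000, 5011 and 7468 in WT BM, and 6839, 4761 and 5628 in Δβ BM. The groups overlapped in both organs. The log2 fold change was -0.32 (SE 0.21, limma adjusted p = 0.452) in SP, -0.47 (SE 0.21, limma adjusted p = 0.145) without WT SP replicate 3, and -0.10 (SE 0.21) in BM.

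Rac2, the haematopoietic Rac GTPase, spans 78559167 to 78572783 of chromosome 15 on the minus strand (NM_009008, Entrez gene 19354). WT SP had 13051, 15112 and 14841 normalized counts and Δβ SP 12058, 10393 and 12034, with no overlap between the groups. WT BM had 12553, 10400 and 14767 and Δβ BM 16603, 12094 and 12942, which overlapped, and here the mean was higher in Δβ. For Rac2 the library WT SP replicate 3 did not lie low. The log2 fold change was -0.32 (SE 0.17, limma adjusted p = 0.388) in SP, -0.29 (SE 0.19, limma adjusted p = 0.297) without WT SP replicate 3, and 0.14 (SE 0.17) in BM. Rac2 resembles Rac1 in sequence, and how reads that fit both were counted is not given in the sources used here.

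**Figure D1:**
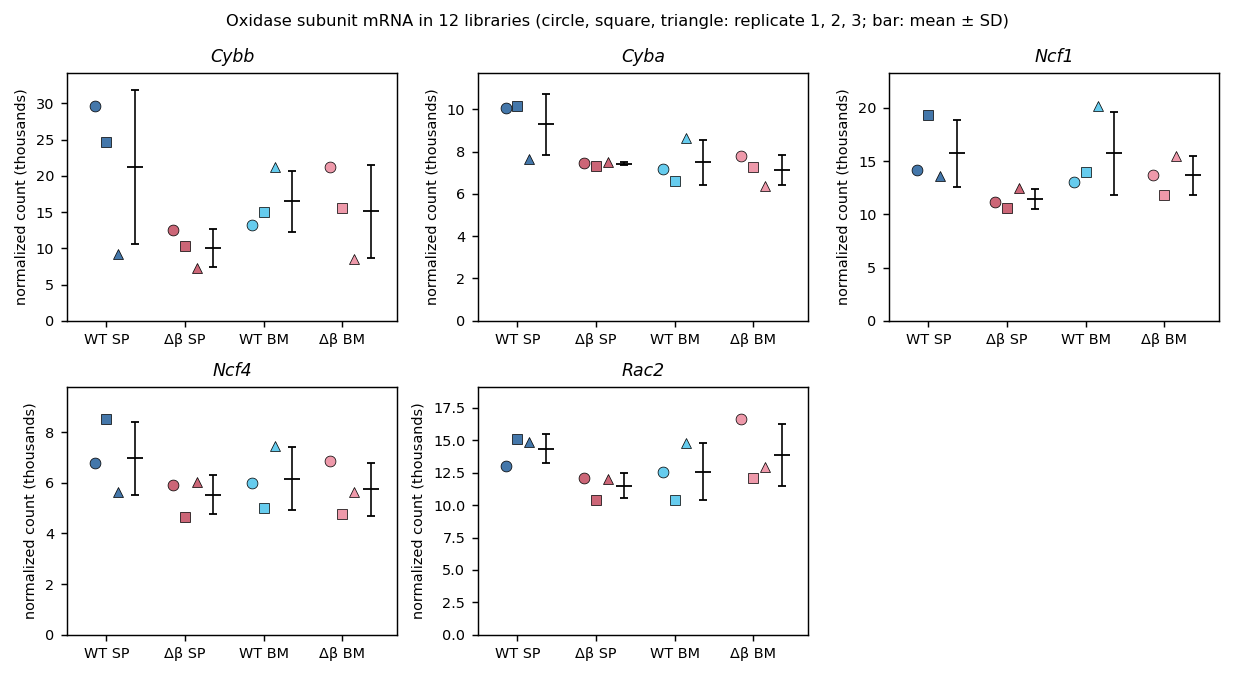
Normalized counts on linear y axes starting at 0 for the 5 members, by group; circles, squares and triangles are replicates 1, 2 and 3, and bars give the mean ± SD of 3 libraries. For Cybb, WT SP replicate 3 (9251) lies within the Δβ SP values, while Cyba, Ncf1 and Rac2 show no overlap between the SP groups.

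Set side by side, no member passed an adjusted p of 0.05 in SP, where 0.105% of the tested genes did, and none in BM, where 0.0697% did. All 5 log2 fold changes were below 0 in SP, as were 51.9% of all tested genes, and 4 of 5 in BM, as were 54.7%. The median of the members was -0.32 in SP and -0.10 in BM, beside medians of -0.01 and -0.02 over all tested genes. For 3 of 5 members (Cyba, Ncf1 and Rac2) every Δβ SP value was below every WT SP value, which was true of 9.37% of the tested genes. In BM this held for 0 of 5, beside 4.13%. These shares are over all tested genes, not over genes as abundant as the members. Normalized totals per library were 1.09e+07 to 1.26e+07 in WT SP and 1.02e+07 to 1.07e+07 in Δβ SP. With quantile scaling the SP log2 fold changes were -0.09 for Cyba, -0.18 for Ncf1 and -0.07 for Rac2. The 95% intervals in SP reached from -0.64 to 0.02 for Cyba, from -0.89 to 0.003 for Ncf1, from -0.77 to 0.13 for Ncf4 and from -0.70 to 0.06 for Rac2 and each of them held 0.

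**Figure D2:**
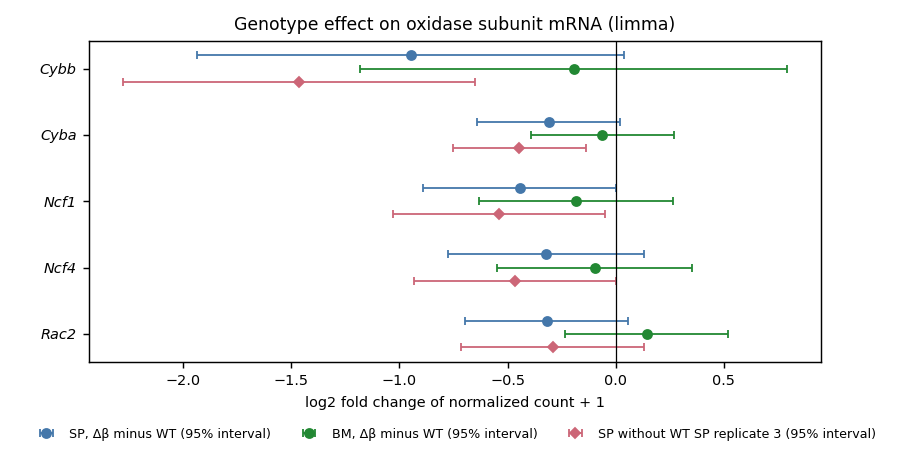
Log2 fold change of Δβ against WT (x axis, on normalized count + 1) with 95% intervals from limma for each subunit, in SP, in BM, and in SP without WT SP replicate 3. The 5 members lie at -0.31 to -0.95 in SP and at -0.19 to 0.14 in BM, and leaving out WT SP replicate 3 moves Cybb to -1.46.

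Whether the genotype effect differed between organs was tested as an interaction over 12 separate libraries. Pairs of SP and BM of 1 genotype and number were not used in this test. The SP effect was lower than the BM effect by 0.75 on the log2 scale for Cybb, 0.46 for Rac2, 0.26 for Ncf1, 0.25 for Cyba and 0.22 for Ncf4, with limma adjusted p-values from 0.926 to 0.936. No gene passed this test in limma or edgeR (0% of those tested), 367 genes (3.2%) had an unadjusted p under 0.05 in limma, and DESeq2 called 3. With SP and BM of 1 genotype and number combined into a mean, and 3 such means set against 3, the members were at -0.57 (Cybb), -0.31 (Ncf1), -0.21 (Ncf4), -0.19 (Cyba) and -0.09 (Rac2). None of them passed (limma adjusted p from 0.512 to 0.840), and 0.148% of all tested genes did.

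Between organs of the same genotype, WT blasts had higher log2 means in SP than in BM for all 5 members (50% of tested genes were lower in SP), with log2 differences of 0.31 for Cyba, 0.23 for Cybb, 0.20 for Rac2, 0.18 for Ncf4 and 0.01 for Ncf1. In Δβ blasts 4 of 5 had lower values in SP, beside 49.6% of tested genes, at -0.52 for Cybb, -0.26 for Rac2, -0.25 for Ncf1 and -0.05 for Ncf4, with Cyba at 0.06. Rac2 was the member whose Δβ SP and Δβ BM values did not overlap, the highest SP value of 12058 lying just under the lowest BM value of 12094, beside 4.51% of tested genes lower without overlap in Δβ SP. Same-numbered SP and BM libraries of Δβ deviated together, and taken as pairs, Cybb, Ncf1 and Rac2 were lower in SP in 3 of 3 pairs, as were 18.7% of tested genes. In a limma fit with the numbers of both genotypes as blocks, the members' adjusted p was 0.9999. It took its spread from WT numbers too, which did not deviate together, and was thus not a test of the Δβ pairs alone. No gene passed the organ test in either genotype by limma or edgeR (0% in each), with 949 (8.27%) in WT and 203 (1.77%) in Δβ at an unadjusted p under 0.05, and DESeq2 called 111 in WT and 2 in Δβ. The members' limma adjusted p-values were 0.604 to 0.993 in WT and 0.99996 in Δβ.

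Ratios within a library are free of its scaling. Cybb to Cyba, the ratio within flavocytochrome b558, was 2.95, 2.43 and 1.21 in WT SP and 1.68, 1.41 and 0.979 in Δβ SP. The log2 difference of -0.64 came with an exact permutation p of 0.3 (two-sided, adjusted p = 0.533 over 4 ratios), where 3 against 3 cannot go below 0.1. The Cybb to Cyba in SP difference was -1.02 without WT SP replicate 3, -0.38 without WT SP replicate 1 and -0.42 without Δβ SP replicate 3. Ncf1 to Ncf4 was 2.26 ± 0.16 for WT SP and 2.08 ± 0.20 for Δβ SP (SD, n = 3 each). Ncf1 to Cyba was 1.70 ± 0.26 and 1.54 ± 0.11, and Rac2 to Cyba 1.58 ± 0.33 and 1.55 ± 0.11. Exact permutation p-values of the 4 ratios ran from 0.3 to 1 in SP and from 0.3 to 0.8 in BM, in a design that could not have reached 0.05.

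To order the subunits against each other, normalized counts were divided by the length of each gene's exon union. On this scale, Cyba had the highest level per kilobase in 12 of 12 libraries, with group means from 6877 ± 680 (SD, n = 3) in Δβ BM to 8939 ± 1383 (SD, n = 3) in WT SP. Rac2 followed at 3704 to 4620 (range of group means), Ncf1 at 3120 to 4295, Ncf4 at 2738 to 3449 and Cybb at 1731 to 3654. Neighbours in this order were close, since Rac2 was above Ncf1 in 8 of 12 libraries and Ncf4 above Cybb in 7 of 12. The length decided the place of Ncf1. With the length of the 1 annotated transcript that matches each row's accession, an alternative chosen after seeing the data, Ncf1 went from 3859 to 9442 per kilobase (mean of 12 libraries), above Rac2, Ncf4 and Cybb in 12 of 12 libraries, and Cyba was above Ncf1 in 9 of 12.

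**Figure D3:**
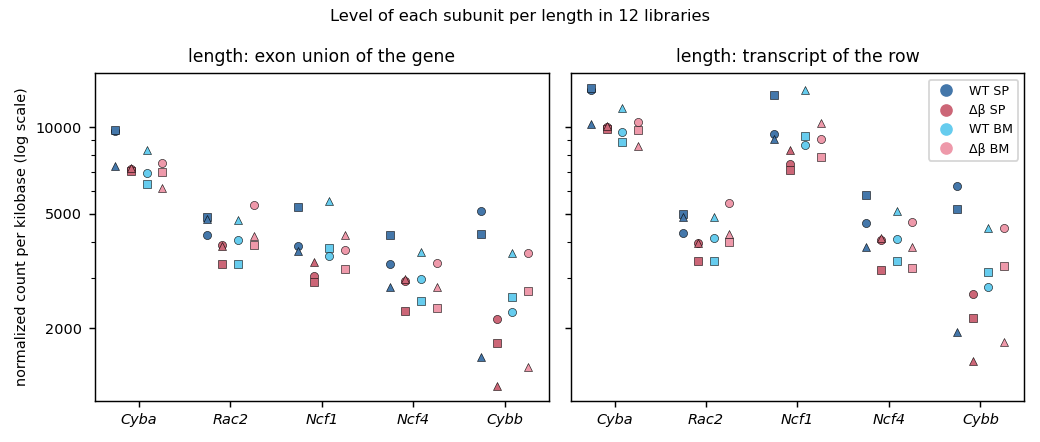
Normalized count per kilobase (log scale) of the 5 members in 12 libraries, by group (colour) and replicate (circle, square, triangle for 1, 2, 3), with 2 lengths per gene. Cyba is highest in 12 of 12 libraries by exon union, and Ncf1 moves up when the matching transcript gives the length.

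Across the 12 libraries the members' log2 values varied together to a moderate degree. Pearson's r between pairs of members was 0.42 (Cybb and Rac2) to 0.77 (Cyba and Ncf4), a description over 12 libraries that share groups and scaling. Among all tested genes, the profile most like that of Cybb was that of Wdr41 (r = 0.957), followed by Lyz2, the lysozyme of myeloid cells (0.949), and Mgst1, a microsomal glutathione transferase (0.941). Nearest to Cyba were Fgr, a Src family kinase of myeloid cells (0.979), Ostf1 (0.977) and the actin regulator Cap1 (0.955). Ncf1 was most like Tesk2 (0.953), Rell1 (0.942) and Rgs19 (0.940), Ncf4 most like Gk5 (0.939), Dmxl2 (0.937) and the myosin light chain Myl6 (0.924), and Crat (0.885) and 4930523C07Rik (0.879) were among the 3 genes most like Rac2. None of these genes is itself a member.

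The remaining parts of the enzyme were listed as 6 partners, all tested. All 6 partners had log2 fold changes below 0 in SP, beside 51.9% of all tested genes, and 0 passed, with a median of -0.27. Without WT SP replicate 3 the median was -0.38 and 3 of 6 passed as lower in limma, beside 11.7% of all tested genes. Among these 3 were Rap1a at -0.38 and Coro1a at -0.58. With all libraries, Cybc1 (listed as BC017643), the chaperone of the membrane pair, was at -0.03, Rac1 at -0.24, Rap1a at -0.17, the p40phox-binding actin regulator Coro1a at -0.30 and the voltage-gated proton channel Hvcn1, which balances charge during the burst, at -0.30.

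Genes of signalling to the oxidase, among them kinases, exchange factors, phospholipases and GDP dissociation inhibitors, formed a list of 19 tested genes. In SP 17 of them were below 0, beside 51.9% of all tested genes, with a median of -0.32. One passed as lower. Prkcb, encoding protein kinase C β, which phosphorylates p47phox, had a mean of 4204 ± 282 normalized counts for WT SP and 2684 ± 153 for Δβ SP (SD, n = 3 each), with a log2 fold change of -0.65 (SE 0.10, limma adjusted p = 0.0497). In limma Prkcb lay at the edge of the threshold, and it passed in 3 of 21 alternatives. The tools differed, with DESeq2 adjusted p = 2.2e-08, where DESeq2 called 457 genes against 12 in limma, and edgeR adjusted p = 0.0658. In limma the adjusted p was 0.0101 without WT SP replicate 3 and at its highest 0.194, with quantile scaling. Of the 19, 11 passed as lower without WT SP replicate 3, beside 11.7% of all tested genes, with a median of -0.51. The most abundant genes of the list, the GDP dissociation inhibitors Arhgdib and Arhgdia that hold Rac in the cytosol, were at -0.16 and -0.18. In BM 13 of 19 were below 0, beside 54.7% of all tested genes, and 0 passed, with a median of -0.07.

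Receptors that trigger the burst had a median of -0.95 in SP over 13 tested genes. Of these 12 were below 0, beside 51.9% of all tested genes, and 0 passed the threshold in limma. The integrin chains Itgam and Itgb2, which form complement receptor 3, averaged 19738 ± 7918 and 16624 ± 9753 normalized counts for WT SP, against 8953 ± 1359 and 7286 ± 1128 for Δβ SP (SD, n = 3 each). Their log2 fold changes were -1.06 (limma adjusted p = 0.218) and -0.97 (limma adjusted p = 0.329). Ltb4r1, a leukotriene B4 receptor, was at -0.95 (limma adjusted p = 0.162). DESeq2, which called 457 of the 11476 tested genes in SP, called Itgam (adjusted p = 0.0107) and Ltb4r1 (adjusted p = 0.00311). It did not call Itgb2 (adjusted p = 0.0642). Without WT SP replicate 3, the median was -1.12 and 11 of 13 passed as lower in limma, beside 11.7% of all tested genes. In that fit Itgam was at -1.44, Itgb2 at -1.59 and Ltb4r1 at -1.12. Itgam was at -0.80, Itgb2 at -0.55 and Ltb4r1 at -0.80 without WT SP replicate 1, and none of them passed in limma. Nor did they pass without WT SP replicate 2, at -0.93, -0.76 and -0.93. In BM the median was -0.11 with 0 called.

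**Figure D4:**
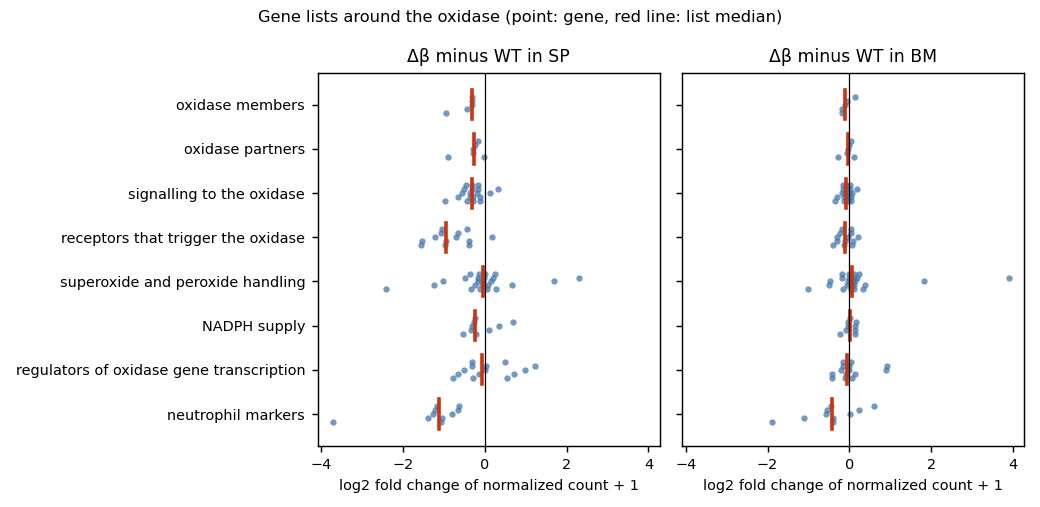
Log2 fold change of Δβ against WT (x axis) for each tested gene of 8 lists (points) with the list median (red line), in SP (left) and BM (right). The receptor list (median -0.95) and the neutrophil markers (median -1.12) lie furthest below 0 in SP, and all lists but the neutrophil markers have medians within 0.2 of 0 in BM.

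Enzymes that remove superoxide and peroxide, or use peroxide as myeloperoxidase does, lay on both sides of 0. In SP 14 of 24 were below 0, beside 51.9% of all tested genes, with a median of -0.05 and 0 called. Mpo, the granule enzyme that makes hypochlorous acid from the oxidase's peroxide, averaged 17263 ± 20202 normalized counts for WT SP and 36576 ± 14618 for Δβ SP, SD of 3 libraries each (log2 fold change 1.68, limma adjusted p = 0.303). Without WT SP replicate 3 Mpo was at 2.64 and passed as higher (limma adjusted p = 0.00924). In that fit Hmox1 (-3.38) and Srxn1 (-1.31) passed as lower, with a list median of -0.12. Mpo was at 1.25 without WT SP replicate 1 and at 1.16 without WT SP replicate 2, and did not pass in limma. DESeq2 called Hmox1 (adjusted p = 0.000509) and Srxn1 (adjusted p = 0.0258) with all libraries. They were among 457 of the 11476 tested genes that it called in SP. Gpx1, a glutathione peroxidase, was at -0.03. Of the 9 tested genes that supply NADPH, 6 were below 0 in SP with a median of -0.23 and 0 called. Tkt, Pgd and G6pdx of the pentose phosphate pathway were at -0.22, -0.32 and -0.27. The median was -0.22 without WT SP replicate 3, when Idh1 (-0.72) and Me2 (-0.54) passed as lower, and Idh2 (0.88) and Rpia (0.73) as higher. In the fit without this library 16.4% of all tested genes passed, 11.7% as lower. Of 9 genes of other NADPH oxidases Noxo1 was the 1 that passed the filter on low values, at 30.2 ± 7.0 normalized counts for WT SP and 28.0 ± 6.3 for Δβ SP (SD, n = 3 each).

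Regulators of oxidase gene transcription lay on both sides of 0. In SP 7 of 14 were below 0, beside 51.9% of all tested genes, with a median of -0.07 and 0 called. Spi1 (PU.1) averaged 7828 ± 1945 normalized counts for WT SP and 4832 ± 423 for Δβ SP (SD, n = 3 each), with no overlap and a log2 fold change of -0.67 (limma adjusted p = 0.218). Cebpa was at -0.77 (limma adjusted p = 0.218). In the other direction, Irf8 was at 0.71 (limma adjusted p = 0.387) and Irf1 at 0.97 (limma adjusted p = 0.329). DESeq2 called Spi1 in SP (adjusted p = 0.0355), where it called 457 of the 11476 tested genes. Without WT SP replicate 3 the median was 0.04 and limma called 3 of 14 as lower, beside 11.7% of all tested genes. These were Spi1 (-0.86, limma adjusted p = 0.0150), Cebpb (-0.95) and Irf2 (-0.68), while Irf8 was at 0.21, Irf1 at 0.67 and Cebpa at -0.77. Spi1 was at -0.50 without WT SP replicate 1 and at -0.645 without WT SP replicate 2, and did not pass in limma. Hmox1, Srxn1, Idh1, Idh2, Me2, Rpia, Cebpb and Irf2 were named after their values were seen.

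Markers of other myeloid cells and of the blasts were summed in each library. The summed normalized counts of 10 neutrophil markers ranged from 136505 to 331616 among WT SP libraries and from 90987 to 113567 among Δβ SP libraries. The BM libraries ranged from 138351 to 398068 for WT and from 110316 to 228969 for Δβ. Taken singly, 2 of the 10 markers (S100a8 and S100a9) had every Δβ SP value below every WT SP value, beside 9.37% of all tested genes. The other markers overlapped, and Ly6g, Mmp9 and Cxcr2 were lower in WT SP replicate 3 than in any Δβ SP library. All 10 neutrophil markers had log2 fold changes below 0 in SP, beside 51.9% of all tested genes, with a median of -1.12 and 0 called. Without WT SP replicate 3 the median was -1.91 and 4 of 10 passed as lower in limma, beside 11.7% of all tested genes. In BM 7 of 10 were below 0, beside 54.7% of all tested genes, with a median of -0.44. WT SP replicate 3 had the lowest neutrophil sum of its group and the highest sum of the 9 blast markers there (20525, against 10052 and 14425 in WT SP replicates 1 and 2). Myb made up much of this sum, at 2842, 5439 and 11400 in WT SP replicates 1, 2 and 3. The blast markers did not move together. Within WT SP, replicate 3 was highest for Hoxa9, Hoxa10, Myb, Kit and Mecom, lowest for Flt3, Cd34 and Mef2c, and between the others for Meis1. The blast marker sum was 15429 to 18546 in Δβ SP. Monocyte markers (6 of 6 above the filter) summed to 16486 to 38163 for WT SP and 17709 to 32886 for Δβ SP. In BM they summed to 23223 to 26485 for WT and 14232 to 31012 for Δβ. Macrophage markers summed to 2702 to 4702 for WT SP and 2873 to 4570 for Δβ SP. Their BM sums did not overlap, at 5117 to 7994 for WT and 3713 to 4760 for Δβ. Of the 2 above the filter, Vcam1 was at -1.36 and Adgre1 at 0.08 in BM, with 0 called. B cell, NK cell, megakaryocyte and erythroid sums stayed at or below 466 normalized counts in each library. In bulk samples, fewer mature cells and less mRNA per cell cannot be told apart, and the part of these markers in the members' values was not tested.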

How the data were processed

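Venus+ MLL-AF9 blasts of WT and Δβ origin were sequenced by the authors as poly-A enriched libraries, 3 per genotype and organ. Per the submitters' processing notes FastQC, STAR, featureCounts and DESeq2 were used with GRCm38/mm10. The deposited unit is a signal, gene counts that the authors scaled by a size factor for each library. Whole reads came back on division by the value of 1 read (0.775 to 1.17, tolerance 0.001) for 100% of values. Another 6 columns of no sample were not used.

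Log2 of the value plus 1 was tested with limma 3.58.1 (R 4.3.3, eBayes with trend) over 11476 genes whose mean reached 10, with 1 mean per group and Benjamini-Hochberg adjustment. Calls used an adjusted p under 0.05. Alternatives were pseudocounts of 0.25 and 4, no filter or a minimum mean of 50, TMM and quantile scaling, edgeR 4.0.16 and DESeq2 1.42.0 on recovered reads, a replicate block and each library left out. The fit was tested on simulated data.

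Deviations from the group mean of same-numbered SP and BM libraries correlated at 0.664, 0.608 and 0.634 in Δβ, and at -0.00936, -0.039 and -0.237 in WT, so the numbers pair SP and BM in Δβ. Genes named were the members, the 3 genes most like each, and from each list those called, the 2 most abundant and a few with a stated role. Members and lists were chosen with earlier results of these data known. Lengths and positions came from GENCODE M21, promoters from RefSeq. Some items named by these rules are not reported here.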

Additional observations from a re-analysis of the deposited data

How the results depend on the processing

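Of 600 values of the 5 members under the alternatives, 578 kept their direction and side of the threshold, 21 turned and 1 newly passed, which was Cybb in SP without WT SP replicate 3. The number of genes called in SP, 12, was 1 with a pseudocount of 0.25, 5 without a filter, 2 with a minimum mean of 50, 3 with TMM, 4 with edgeR, 457 with DESeq2 and 2 with a replicate block, and 1 to 1884 with 1 library left out (1884 without WT SP replicate 3). In BM it was 8, with 37 in DESeq2, 5 with the replicate block and 1 to 13 with a library left out. Over both organs it was 17, with 422 in DESeq2, 55 with the replicate block and 2 to 27 with a number left out. DESeq2 called 3 genes for the difference between organs, 111 between organs in WT and 2 in Δβ, where limma called 0 with all libraries. With 1 library left out, limma called 0 to 598 between organs in WT. The cause of these shifts was not tested. WT and Δβ numbers did not pair (same-number correlations of 0.202, -0.166 and -0.0126 in SP and 0.128, -0.084 and -0.0893 in BM), and the replicate block changed no call of a member.

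Quantile normalization brought the members in SP to -0.68 (Cybb), -0.18 (Ncf1), -0.09 (Cyba), -0.09 (Ncf4) and -0.07 (Rac2), and turned Rac2 over both organs to 0.066 and, between organs in WT, Cybb to -0.053, Ncf1 to -0.19 and Ncf4 to -0.0029. Ncf1 between organs in WT was near 0 and turned with TMM (-0.0059), edgeR (-0.016) and DESeq2 (-0.0083). With 1 library left out, SP effects ranged from -1.46 to -0.62 for Cybb, -0.45 to -0.24 for Cyba and -0.54 to -0.29 for Ncf1. They ranged from -0.47 to -0.17 for Ncf4 and -0.39 to -0.25 for Rac2. BM effects then ranged from -0.49 to 0.17 for Cybb, -0.15 to 0.047 for Cyba, -0.31 to 0.010 for Ncf1 and -0.24 to 0.051 for Ncf4. Organ effects ranged in WT from -0.095 to 0.75 for Cybb and -0.15 to 0.20 for Ncf1, and in Δβ from -0.018 to 0.12 for Cyba and -0.17 to 0.086 for Ncf4. The log2 differences of ratios ranged from -1.02 to -0.38 for Cybb to Cyba in SP, -0.14 to 0.15 for Rac2 to Cyba in SP, -0.36 to 0.16 for Cybb to Cyba in BM and -0.20 to 0.041 for Ncf1 to Ncf4 in BM. In SP, BC017643 turned with TMM (0.0020) and quantile scaling (0.11) and ranged from -0.20 to 0.071 with a library left out. Gpx1 turned with TMM (0.0046), quantile scaling (0.18) and edgeR (0.0072) and ranged from -0.094 to 0.064. Quantile scaling turned Arhgdib to 0.17, Arhgdia to 0.037 and Tkt to 0.045. Leaving out a library gave -0.38 to 0.0054 for Rap1a and -1.003 to 0.24 for Hvcn1. With 3 replicates and the spread of Cybb, the 95% interval in SP covers both no difference and a log2 difference of -1.93. Depth did not limit the members, whose lowest count was 4076 reads.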
